A study of Mus musculus with 60 samples.

Results

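The 10 genes described here encode the coat of the mouse egg and some of its stored maternal products. They are the zona pellucida glycoproteins Zp1, Zp2 and Zp3, the secreted factors Oosp1, Gdf9 and Bmp15, the kinase Mos, and the maternal regulators Zar1, Npm2 and Dppa3. They were taken by name, and all 10 were found among the 27238 genes of the table by their Ensembl identifiers. RNA was sequenced from single preimplantation embryos of 3 types at 6 stages (the pronuclear 1-cell embryo, then 2, 4 and 8 cells, the morula and the blastula), with 3 embryos in each of these 18 groups. In vivo embryos came from superovulated C57BL/6 females mated with DBA2 males. NTC and NTM embryos were made by nuclear transfer (NT), that is, by injecting a donor nucleus into an enucleated oocyte of an adult BDF1 female (C57BL/6 × DBA2). The donor was a cumulus cell (CC) of a BDF1 female for NTC and a cultured embryonic fibroblast (MEF) of a BDF1 fetus for NTM. NT embryos were activated with SrCl2, cytochalasin B and Scriptaid, a histone deacetylase inhibitor, and then cultured in vitro, whereas the in vivo embryos had none of these treatments. CC and MEF libraries, 3 each, made up the other 2 of the 20 groups and the rest of the 60 libraries.

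The growing oocyte transcribes these genes, stores their mRNAs and stops transcription before it is ovulated, so the early embryo begins with messages it did not make. Those maternal mRNAs are then degraded in waves, while the embryo switches on its own genome at the 2-cell stage. In nuclear transfer the oocyte cytoplasm, with its store of mRNAs, is kept and only its chromosomes are replaced.

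Values are RPKM, that is, reads per kilobase of gene length, scaled to the library's total of reads, so levels can be compared between genes. They are relative to each library's own total, and they can say nothing of RNA per embryo: fewer or smaller cells and less of an mRNA in each cell cannot be told apart. The 54 embryo libraries held 5294160 to 26281516 reads on genes (median 14718191) and the 6 donor cell libraries 31558121 to 47830137. In vivo 1-cell replicate 1 stood apart from the other two of its group, with 9491 genes above 0 against 12187 and 12593 and with 13.4% of its reads from mitochondrial genes against 4.71% and 6.26%. This library was the lowest of its group for 9 of the 10 genes. The mitochondrial share was 5.68 to 8.87% in vivo and 29.6 to 40.4% in NT at the 4-cell stage, and in vivo blastulas had 7730 to 7808 genes above 0 against 11498 to 13568 in NT blastulas. All comparisons were also computed with values scaled to the reads outside mitochondrial genes (nuclear genes only). Beyond that scaling, the part of these differences in the results below was not tested. Markers of the donor cells were near 0 in 1-cell embryos. The summed level of 7 cumulus markers was 0 to 3.65 RPKM in NTC, with Foxl2 and Amh at 0 and 5 above 0. NTM 1-cell embryos, which had no cumulus donor, were at 1.52 to 3.25 RPKM on the same sum. CC held 268 to 355 RPKM, with Has2 at 0, and MEF 496 to 1209 RPKM, through Ptx3 and Tnfaip6. The sum of 6 fibroblast markers was 0 to 1.01 RPKM in NTM, with Col1a1, Col1a2, Col3a1 and Twist1 at 0, against 4399 to 6366 RPKM in MEF.

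In 1-cell embryos the levels of the 10 genes spanned a wide range. Oosp1 was the most abundant in vivo, at 1827 ± 346 RPKM (mean ± SD, n = 3), followed by Bmp15 at 830 ± 357, Gdf9 at 402 ± 317, Npm2 at 346 ± 75, Zar1 at 179 ± 106, Zp3 at 103 ± 66.8, Dppa3 at 95.5 ± 47.5, Zp2 at 66.5 ± 18.4, Zp1 at 36.8 ± 31.6 and Mos at 7.92 ± 6.79 RPKM. In this order the ranges of neighbours overlapped except between Oosp1 and Bmp15 and between Npm2 and Zar1. Bmp15 led in both kinds of NT embryo, at 1234 ± 123 RPKM in NTC and 2239 ± 134 RPKM in NTM, with no overlap with the next gene. Npm2 was second in NTC at 868 ± 83.5 RPKM, overlapping Oosp1 at 753 ± 148 RPKM, and ranked 3 in NTM. Mos was the lowest gene in every type, at 3.29 ± 0.749 RPKM in NTC and 1.27 ± 0.902 RPKM in NTM. The plot of levels by stage shows this spread and the course of each gene.

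**Figure D1:**
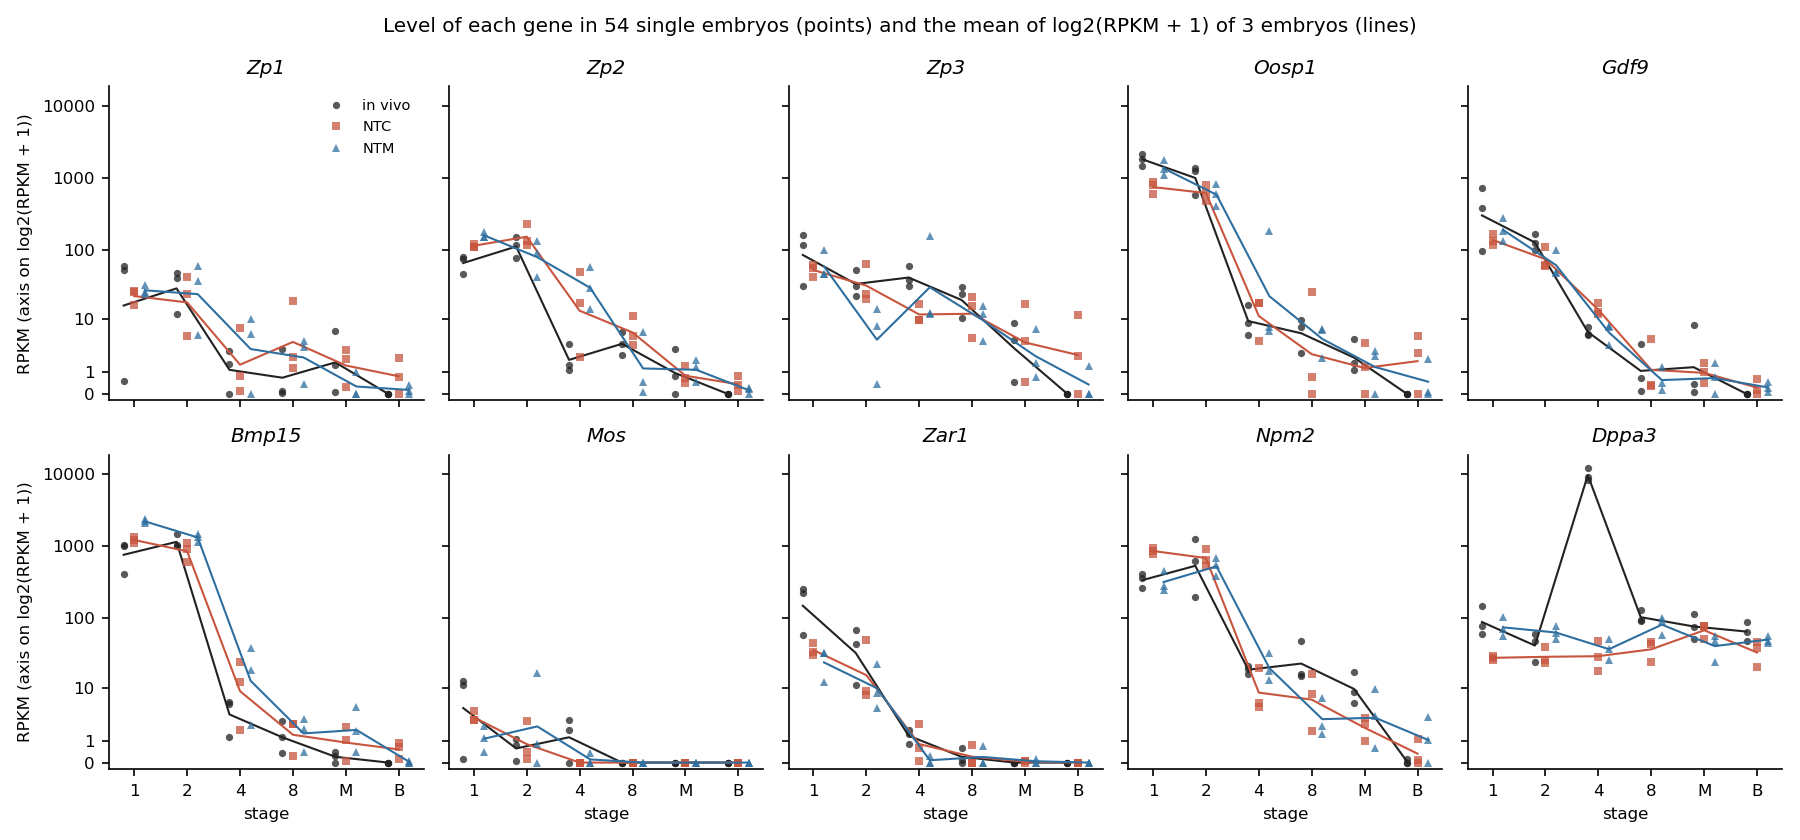
RPKM of the 10 genes (vertical axis on the log2(RPKM + 1) scale) against stage, from 1-cell to morula (M) and blastula (B). Points are single embryos, 3 a group, and lines join group means of log2(RPKM + 1). Most genes are high at the 1-cell and 2-cell stages and near 0 at the blastula, whereas Dppa3 rises to between 8284 and 12402 RPKM in the 3 in vivo 4-cell embryos and in no NT embryo.

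On passing from 2 to 4 cells, 7 of the 10 genes fell in vivo, 7 fell in NTC and 5 fell in NTM. The test was limma on log2(RPKM + 1), with a call at a Benjamini-Hochberg adjusted p under 0.05 over all genes tested and a difference of at least 1 on that log2 scale, which understates changes of low genes. The 7 that fell in vivo and in NTC were Zp1, Zp2, Oosp1, Gdf9, Bmp15, Zar1 and Npm2, and the 5 in NTM were Oosp1, Gdf9, Bmp15, Zar1 and Npm2. The share of all tested genes that fell at this step was 20.8% for in vivo, 20.1% for NTC and 14.3% for NTM embryos. The median difference of the 10 genes was -3.97 in vivo, -3.03 in NTC and -2.82 in NTM, beside 0.36, -0.20 and -0.20 over all genes tested. No gene of the 10 was called between the 1-cell and 2-cell stages in vivo, where limma called 0 of 10854 genes and 612 (1 of the 10, Zar1) had an unadjusted p under 0.05 with a difference of at least 1, nor in NTC, where 13.5% of genes were called. Without NTC 2-cell replicate 2, Zar1 (-1.96), Zp3 (-1.22) and Gdf9 (-1.17) were called lower in NTC, and without replicate 3 Mos was (-1.76). In NTM embryos Zp3, Oosp1 and Gdf9 fell at that step, at which 6.68% of genes fell. At the next step, to 8 cells, Gdf9 and Dppa3 fell in vivo (39.3% of genes fell), and limma called 0 in NTC and 0 in NTM (0.0564% and 0.363% of genes), with 2 and 5 at an unadjusted p under 0.05 and a difference of at least 1. Leaving out any of the NTM 1-cell embryos ended these 3 early NTM calls, while the differences stayed at -3.01 to -3.56 for Zp3, -1.03 to -1.38 for Oosp1 and -1.35 to -1.88 for Gdf9, and none was called with median-ratio scaling. The calls of Zp3 (-3.70) and Oosp1 (-0.96) also ended without NTM 2-cell replicate 2. Those of Oosp1 (-1.23) and Gdf9 (-1.46) ended without replicate 1, and that of Gdf9 (-1.44) without replicate 3.

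**Figure D2:**
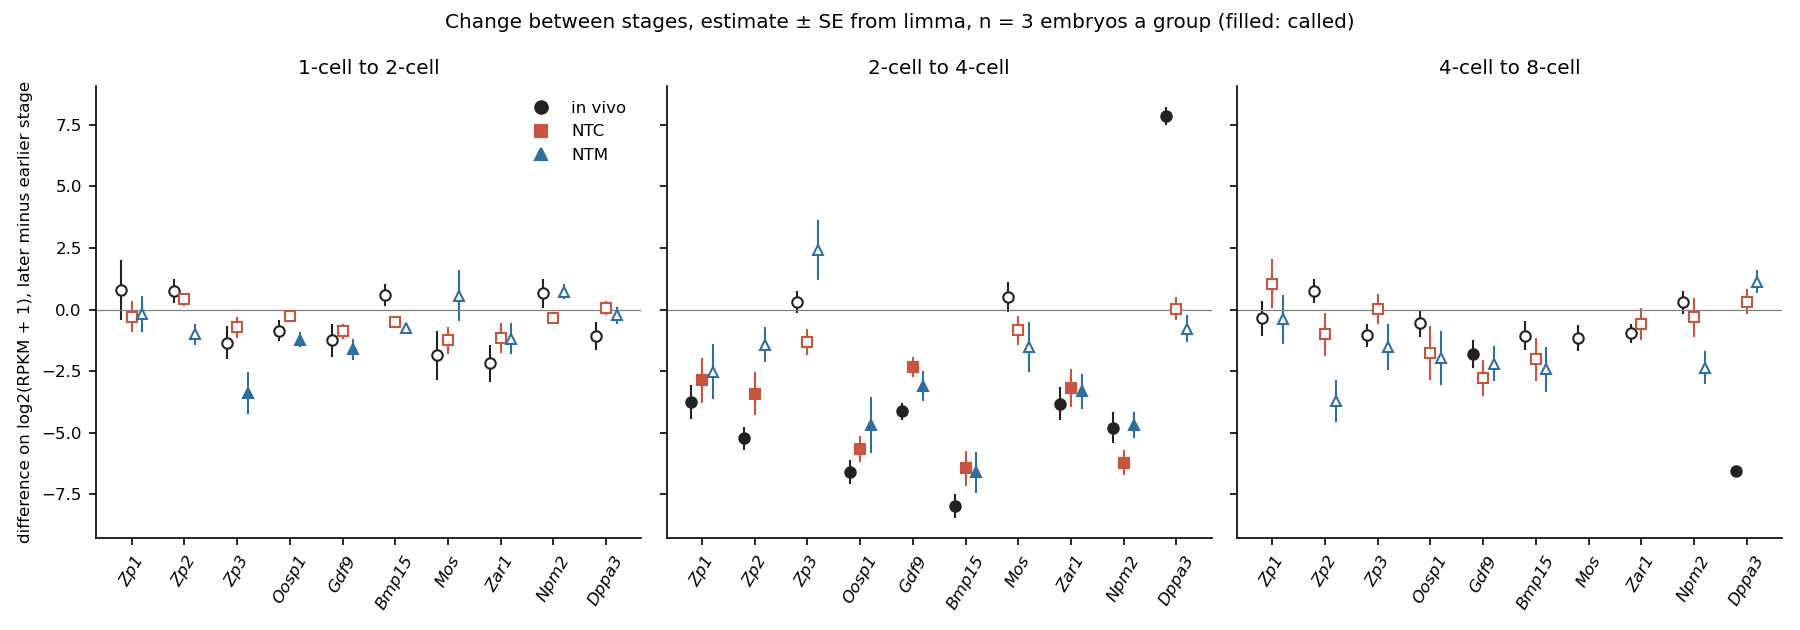
Difference between consecutive stages for each gene on the log2(RPKM + 1) scale, as the limma estimate ± SE, for in vivo, NTC and NTM embryos (3 embryos a group). Filled symbols passed the test. Most filled symbols lie in the step from 2-cell to 4-cell, where Bmp15 has the lowest value in vivo (-7.96) and Dppa3 the only high one (7.86).

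The 3 zona genes did not follow the same course. The zona pellucida is the extracellular coat to which sperm bind. It is laid down during oocyte growth and stays around the embryo until hatching. Zp2 encodes the ligand for sperm and is cleaved after fertilization by the protease encoded by Astl, and Zp1 encodes the protein that cross-links the filaments. Zp2 (chr7:120126772-120145291 of GRCm38, minus strand) was at 45.5, 74.2 and 79.7 RPKM in the in vivo 1-cell embryos, 117, 148 and 77.1 in the 2-cell embryos and 3.87, 1.16 and 1.48 in the 4-cell embryos. The 4-cell embryos lay below all earlier ones, a difference of -5.23 ± 0.46 from the 2-cell stage (SE, adjusted p = 0.000123). NTC 4-cell embryos held 17.2, 2.30 and 47.5 RPKM and NTM 4-cell embryos 14.3, 56.0 and 28.9 RPKM. All NTM 4-cell embryos, and 2 of the 3 NTC ones, were above every in vivo 4-cell embryo. The fall from the 2-cell stage was -3.41 ± 0.86 in NTC (adjusted p = 0.0153), a call that ended when any of the NTC 2-cell embryos was left out (-3.12 to -3.60), and -1.42 ± 0.70 in NTM (adjusted p = 0.168). At the 8-cell stage the highest Zp2 level of any embryo was 11.1 RPKM, in NTC.

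Zp1 (chr19:10914287-10920632, minus strand) was at 0.532, 51.9 and 58.1 RPKM in vivo at the 1-cell stage, the low value being the library that stands apart. It was at 47.0, 39.6 and 11.7 RPKM at the 2-cell stage and 2.88, 1.59 and 0 RPKM at the 4-cell stage, a fall of 3.75 ± 0.70 on the log2 scale (adjusted p = 0.00340). The corresponding values in NTC were 5.38, 40.9 and 23.2 RPKM at the 2-cell stage and 0.106, 7.33 and 0.788 RPKM at the 4-cell stage, so that 1 pair of embryos overlapped (difference -2.87 ± 0.91, adjusted p = 0.0374). That call was lost without NTC 2-cell replicate 2 or 3 or without NTC 4-cell replicate 1 or 3 (-2.27 to -2.68). NTM embryos went from 35.4, 59.3 and 5.50 to 9.81, 5.84 and 0 RPKM, which also overlap (-2.53 ± 1.12, adjusted p = 0.131).

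Zp3, which encodes the remaining structural glycoprotein of the coat, did not fall with them in vivo. It was at 30.8, 162 and 117 RPKM in the in vivo 1-cell embryos, 30.4, 21.8 and 51.9 RPKM at the 2-cell stage, 30.1, 36.7 and 58.9 RPKM at the 4-cell stage and still 23.2, 29.1 and 10.2 RPKM at the 8-cell stage. The 2-cell and 4-cell embryos overlapped throughout (difference 0.30 ± 0.45, adjusted p = 0.583), and the mean at the 4-cell stage was 40.6% of the 1-cell mean, against 3.26% for Zp2 and 4.05% for Zp1. NTC embryos fell from 59.9, 55.6 and 40.9 RPKM at the 1-cell stage to 16.7, 9.70 and 9.73 RPKM at the 4-cell stage, all below the in vivo 4-cell embryos. NTM embryos were at 97.1, 44.7 and 44.6, then 14.1, 7.80 and 0.366, then 12.4, 157 and 12 RPKM. The value of 157 came from NTM 4-cell replicate 2, which among the 9 4-cell embryos also had the highest Zp2, Oosp1, Bmp15 and Npm2. That library had 8997 genes above 0 and 9771702 reads on genes. NTM 4-cell replicates 1 and 3 had 10637 and 10930 genes above 0 and 17400960 and 18436506 reads. Zp3 lies at chr5:135980099-135988624 on the plus strand. The 250 bases before its start, from the RefSeq table of GRCm38.p6, are shown with E-boxes (CANNTG, both strands) in capitals, since the oocyte factor encoded by Figla is known to bind such a site in zona gene promoters.

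Zp3 promoter (chr5:135979855-135980104, plus strand): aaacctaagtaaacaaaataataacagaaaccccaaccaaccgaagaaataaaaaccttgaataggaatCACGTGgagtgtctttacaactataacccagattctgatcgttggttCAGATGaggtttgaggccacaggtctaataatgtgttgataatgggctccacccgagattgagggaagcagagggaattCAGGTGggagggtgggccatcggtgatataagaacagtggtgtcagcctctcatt

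The 3 E-boxes begin 181, 134 and 55 bases before the start and a TATAA motif 29 bases before it. E-boxes are common: 66.2% of the 32841 promoters in the table hold at least 1 within the same 250 bases, and 22.8% hold TATAA on either strand. Figla itself was already low, at 0.198 RPKM on average in vivo and 1.18 RPKM in NTC at the 1-cell stage.

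The secreted factors were abundant at the start and much lower by the 4-cell stage. Their means there were 0.505 to 1.57% of the 1-cell mean in vivo. In NT embryos the highest shares were 10.1% for Gdf9 in NTC and 4.76% for Oosp1 in NTM. Bmp15 and Gdf9 encode related growth factors of the TGF-β family, by which the oocyte acts on the granulosa and cumulus cells around it, and Oosp1 encodes another protein secreted by the oocyte. Bmp15 (chrX:6314107-6320721, minus strand) was at 1471, 1057 and 1001 RPKM in the in vivo 2-cell embryos and at 5.44, 5.83 and 1.30 RPKM in the 4-cell embryos. This difference of -7.96 ± 0.49 (adjusted p = 3.76e-05) left 0.505% of the 1-cell mean. In NTC the level went from 603, 1115 and 936 to 1.85, 12.2 and 24.1 RPKM (-6.45 ± 0.72, adjusted p = 0.000418). In NTM it went from 1166, 1482 and 1373 to 18.2, 38.5 and 2.36 RPKM (-6.61 ± 0.83, adjusted p = 0.00121). Every 4-cell embryo was far below every 2-cell embryo of its type.

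Oosp1 (chr19:11667460-11691150, minus strand) was at 579, 1371 and 1235 RPKM in vivo at the 2-cell stage and 16.4, 5.52 and 8.51 RPKM at the 4-cell stage (-6.60 ± 0.50, adjusted p = 7.08e-05). It went from 802, 608 and 474 to 17.0, 4.34 and 17.2 RPKM in NTC (-5.67 ± 0.52, adjusted p = 0.000196) and from 593, 405 and 817 to 7.45, 183 and 6.53 RPKM in NTM (-4.68 ± 1.13, adjusted p = 0.0165). The highest NTM 4-cell value is again replicate 2, more than any other 4-cell embryo (next 17.2). The NTM call was lost without any of the 2-cell embryos or without 4-cell replicate 1 or 3 (-3.88 to -4.94), whereas without 4-cell replicate 2 it was kept.

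Gdf9 (chr11:53431023-53437904, plus strand) varied widely in vivo at the 1-cell stage, at 95.9, 729 and 382 RPKM. It was at 163, 122 and 99.7 RPKM at the 2-cell stage and 5.73, 7.60 and 5.58 RPKM at the 4-cell stage (-4.13 ± 0.35, adjusted p = 0.000109). NTC 4-cell embryos kept 11.7, 12.8 and 17.2 RPKM, all above the in vivo ones, after 58.6, 108 and 61.4 RPKM at the 2-cell stage (-2.33 ± 0.41, adjusted p = 0.00293). NTM 4-cell embryos were at 7.87, 3.83 and 7.45 RPKM after 47.8, 97.6 and 46.7 RPKM (-3.10 ± 0.61, adjusted p = 0.00710). In vivo, Gdf9 fell again by the 8-cell stage, to 0.103, 3.90 and 0.679 RPKM (-1.80 ± 0.58, adjusted p = 0.0372), a call lost without any of the 3 4-cell embryos or without 8-cell replicate 1 or 3 (-1.34 to -1.87).

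Besides Zp3, only Bmp15, Oosp1 and Zar1 of the 10 genes had a promoter in the same RefSeq table. The 250 bases before their starts are given for comparison, with E-boxes and NOBOX elements (TAATTG or TAATTA, both strands) in capitals. Nobox encodes a homeobox factor of the oocyte.

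Bmp15 promoter (chrX:6320725-6320974, minus strand): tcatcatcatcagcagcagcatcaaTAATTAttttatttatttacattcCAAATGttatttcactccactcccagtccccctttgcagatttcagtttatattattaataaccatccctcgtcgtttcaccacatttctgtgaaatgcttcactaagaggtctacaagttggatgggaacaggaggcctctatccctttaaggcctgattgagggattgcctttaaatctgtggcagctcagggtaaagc
Oosp1 promoter (chr19:11691052-11691301, minus strand): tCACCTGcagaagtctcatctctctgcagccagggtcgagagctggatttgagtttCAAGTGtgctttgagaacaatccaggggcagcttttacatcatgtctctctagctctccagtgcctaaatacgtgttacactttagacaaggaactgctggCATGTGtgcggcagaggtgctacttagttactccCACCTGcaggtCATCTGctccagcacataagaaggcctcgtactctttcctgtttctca
Zar1 promoter (chr5:72581085-72581334, minus strand): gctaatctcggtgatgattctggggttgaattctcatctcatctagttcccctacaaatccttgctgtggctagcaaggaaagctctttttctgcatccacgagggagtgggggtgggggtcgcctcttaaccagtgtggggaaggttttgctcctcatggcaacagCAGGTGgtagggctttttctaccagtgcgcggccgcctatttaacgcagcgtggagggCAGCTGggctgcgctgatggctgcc

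Bmp15 has a single E-box, 201 bases before the start, and a single TAATTA 225 bases before it. Oosp1 has 5 E-boxes (249, 194, 93, 59 and 48 bases before the start) and Zar1 has 2 (83 and 25). These distances are from the RefSeq start. In GENCODE M21 the Oosp1 and Zar1 genes begin further upstream, at chr19:11691150 and chr5:72581254. Both Zar1 E-boxes, and the Oosp1 ones at 93, 59 and 48, therefore lie inside the GENCODE gene. A NOBOX element is found in 11.3% of all promoters in this window, and of these genes only Bmp15 has it. At the other end of the messages, the last 150 bases of the longest coding transcript (GENCODE M21, GRCm38) hold a polyadenylation signal, AATAAA or ATTAAA on the transcribed strand, in all 10 genes and in 76.6% of 21813 genes. A cytoplasmic polyadenylation element (TTTTAT or TTTTAAT), the kind of site by which stored oocyte messages are re-adenylated, is there in 2 of the 10, Gdf9 and Oosp1, and in 21.5% of all genes. The 30 bases around the last signal are given for Gdf9, where the element lies beside it, and for Zp2, from the zona group, and Dppa3, the exception described below, with signal and element in capitals.

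Gdf9 3′ end (chr11:53437862-53437891, plus strand): gtggTTTTATgtgacggaagAATAAActgt
Zp2 3′ end (chr7:120126772-120126801, minus strand): tctttaaactctAATAAAattatcctctgg
Dppa3 3′ end (chr6:122630242-122630271, plus strand): ccagaaatttgtAATAAAagcatttttgtt

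Zar1 (chr5:72576806-72581254, minus strand) encodes an RNA-binding protein of the oocyte without which embryos arrest at the first cleavages. It was at 57.8, 228 and 252 RPKM in vivo at the 1-cell stage, 68.0, 43.5 and 11 RPKM at the 2-cell stage and 1.87, 1.53 and 0.813 RPKM at the 4-cell stage. The last step was -3.82 ± 0.66 (adjusted p = 0.00246). Its loss between the 1-cell and 2-cell stages had the largest size of the 10 in vivo (-2.18 ± 0.75) and was not called (adjusted p = 0.787). NTC embryos held 29.8, 44.9 and 33.4, then 9.01, 48.8 and 7.80, then 0.0605, 2.44 and 0.619 RPKM (2-cell to 4-cell -3.18 ± 0.77, adjusted p = 0.0128). NTM embryos held 32.6, 12.3 and 32.3, then 8.29, 22.5 and 4.75, then 0.249, 0 and 0 RPKM (-3.32 ± 0.71, adjusted p = 0.00983). Every NT 1-cell embryo was below every in vivo one. Reads could also fall on the copy Gm15847 (95.2% identical), which reached at most 4.02 RPKM in any library.

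Npm2 (chr14:70647302-70659244, minus strand) encodes the egg nucleoplasmin, a histone chaperone that acts on sperm chromatin. It was at 629, 1252 and 198 RPKM in the in vivo 2-cell embryos and 20.9, 15.8 and 19.0 RPKM in the 4-cell embryos (-4.79 ± 0.64, adjusted p = 0.000719). Levels went from 542, 653 and 930 to 5.78, 4.91 and 19.5 RPKM in NTC (-6.21 ± 0.52, adjusted p = 0.000148) and from 550, 685 and 393 to 13.1, 32.1 and 17.4 RPKM in NTM (-4.69 ± 0.53, adjusted p = 0.000789). After that step it was still present in vivo, with 47.9, 15.1 and 15.9 RPKM at the 8-cell stage, overlapping the 4-cell embryos, and 17.1, 5.82 and 8.44 RPKM in the morula, before 0, 0.117 (a single read) and 0 RPKM in the blastula. Its relative Npm1, which is used in most cells, went the other way, from 661 to 2504 RPKM on average in vivo at this step (2.01 ± 0.33, adjusted p = 0.00184), and rose in NTC (1.69 ± 0.37, adjusted p = 0.00778) and NTM (3.11 ± 0.46, adjusted p = 0.00216) too.

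Mos (chr4:3870657-3872105, minus strand) encodes the kinase that holds the egg at metaphase II through the MAP kinases, and was barely present. In vivo 1-cell embryos were at 0.132, 12.6 and 11.1 RPKM, 2-cell embryos at 0.741, 1.14 and 0.0418 and 4-cell embryos at 0, 2.96 and 1.86. The NTC series was 2.86, 4.16 and 2.86, then 0.409, 0.115 and 2.74, then 0 in all 3 embryos. In NTM it was 1.17, 0.420 and 2.22, then 0, 0.802 and 16.8, then 0, 0.353 and 0 RPKM. No step was called, and 1 embryo in each of several groups set the mean. From the 8-cell stage on Mos was at 0 in all 27 embryos. Of its pathway, 8 genes listed, 7 passed the filter at the 2-cell to 4-cell step. Fbxo43, which encodes the other factor holding the metaphase arrest, fell in all 3 types (-5.97 ± 0.46 in vivo, adjusted p = 7.27e-05), as did Mapk3 (-4.14 ± 0.64, adjusted p = 0.00139). Map2k1, the direct substrate of the Mos kinase, fell in NTC (-2.30 ± 0.56, adjusted p = 0.0126) and NTM (-3.01 ± 0.77, adjusted p = 0.0205), and its difference in vivo was 0.46 ± 0.51 (adjusted p = 0.455).

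Dppa3 (chr6:122626410-122630272, plus strand), also known as Stella, encodes a maternal protein that protects DNA methylation in the zygote, and it was the exception. In vivo it was at 149, 59.5 and 77.8 RPKM at the 1-cell stage and 24.3, 48.2 and 59.2 RPKM at the 2-cell stage. The 3 in vivo 4-cell embryos then held 12402, 8284 and 9154 RPKM, and the 8-cell embryos 93.1, 132 and 90 RPKM. The rise was 7.86 ± 0.38 (adjusted p = 2.14e-05, where 31.4% of all genes rose) and the following fall -6.55 ± 0.21 (adjusted p = 3.90e-06). The mean at the 4-cell stage was 226 times that at the 2-cell stage and 94.8 times that at the 8-cell stage. Dppa3 took 0.739 to 1.11% of the reads on genes in these embryos and ranked 4 by mean RPKM, behind mt-Nd1, mt-Cytb and Mt1. It was not alone in rising so much: 67 of the 12995 genes tested rose at least as far.

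No NT embryo showed the pulse. NTC 4-cell embryos were at 47.9, 17.8 and 28.4 RPKM and NTM 4-cell embryos at 25.3, 51.4 and 37.3 RPKM. NTC morulas (51.4 to 77.9 RPKM) were all above the NTC 4-cell embryos. NTM 1-cell (56.6 to 103 RPKM) and 8-cell embryos (58.6 to 101 RPKM) were all above the NTM 4-cell embryos. The other stages of each NT type overlapped its 4-cell embryos. The 2-cell to 4-cell difference was 0.03 ± 0.47 in NTC (adjusted p = 0.963) and -0.77 ± 0.54 in NTM (adjusted p = 0.317). Over the 51 embryo libraries other than in vivo 4-cell, Dppa3 ran from 17.8 to 149 RPKM with a median of 51.2, and the lowest in vivo 4-cell embryo was 55.6 times the highest of them. At the blastula stage Dppa3 was at 64.0, 48.3 and 88.4 RPKM in vivo, 37.5, 45.7 and 20.3 RPKM in NTC and 48.2, 57.0 and 45.4 RPKM in NTM. Dppa3 has a near-identical processed copy, Dppa3-ps (98.2% identical over 451 bases), which reached at most 0.457 RPKM in any library and was at 0 in the in vivo 4-cell embryos. Another copy, Gm47576, was not used here.

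**Figure D3:**
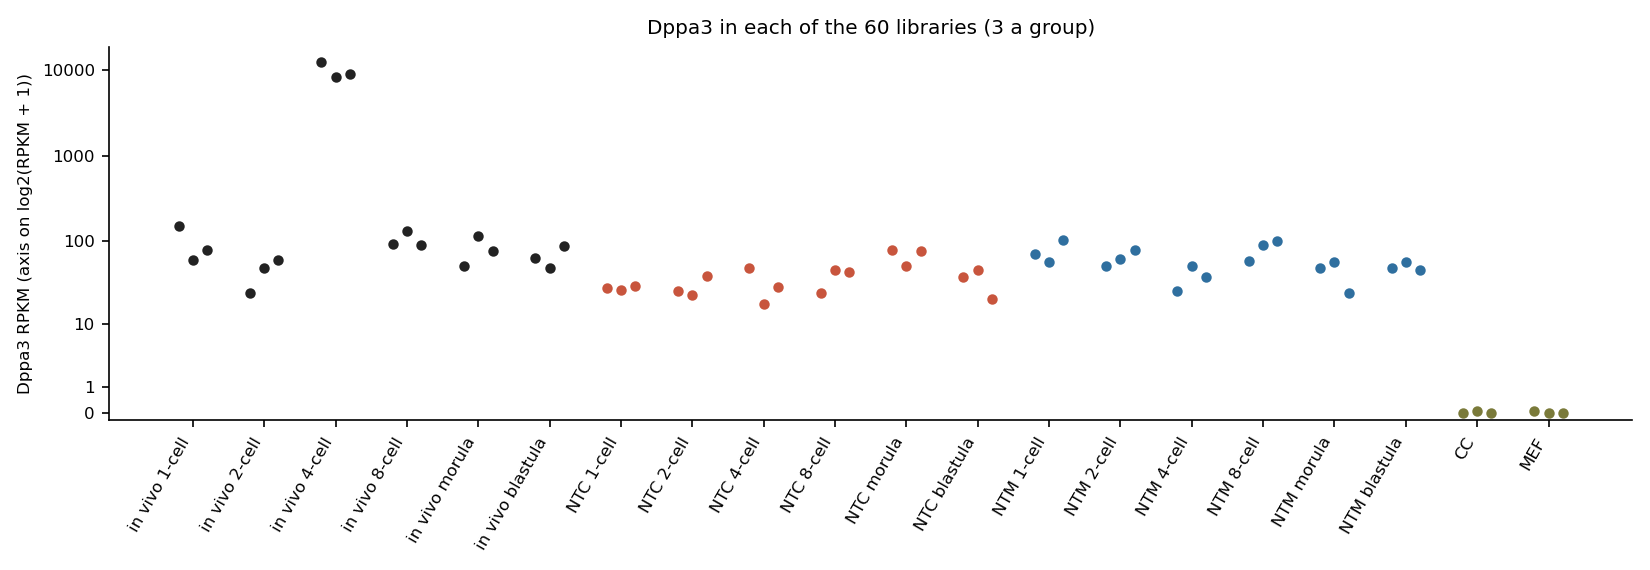
RPKM of Dppa3 in each of the 60 libraries (vertical axis on the log2(RPKM + 1) scale), with the 20 groups along the horizontal axis and 3 libraries a group. The 3 in vivo 4-cell embryos lie between 8284 and 12402 RPKM, all other embryos between 17.8 and 149 RPKM, and the donor cells at or near 0.

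Little of the 9 genes other than Dppa3 was left at the end of the series. In the in vivo blastula 26 of their 27 values were 0, against 11 for NTC and 14 for NTM embryos, where the highest values were 11.3 and 3.25 RPKM. Of all 27238 genes, 7730 to 7808 were above 0 in the in vivo blastulas and 11498 to 13568 in the NT blastulas. The part of this wider difference in the counts of 0 was not tested. From the 1-cell stage to the blastula, limma called 7 of the 10 genes lower in vivo (25.4% of all genes fell), 9 in NTC (38.7%) and 9 in NTM (31.1%). The 7 were Zp2, Zp3, Oosp1, Gdf9, Bmp15, Zar1 and Npm2. Zp1 and Mos joined them in NT. The Mos call in NTM was lost without NTM 1-cell replicate 1 or any of the NTM blastulas (-1.10 each). Without NTM 1-cell replicate 3, Mos did not pass the filter. In vivo, Zp1 and Mos joined too once replicate 1 of the 1-cell embryos was left out (-5.80 and -3.68). Because those libraries were at 0, the folds in vivo are bounds set at 3 reads in a library: Bmp15 was at least 7217-fold lower than in the 1-cell mean, Oosp1 at least 5061-fold, Gdf9 at least 2324-fold, Zar1 at least 1772-fold, Zp2 at least 418-fold, Zp3 at least 389-fold, Zp1 at least 208-fold and Mos at least 32.7-fold lower. In the NTC blastula Zar1 was at least 425-fold lower and in the NTM blastula at least 533-fold lower. No gene of the 10 was called between the 8-cell stage and the morula or between the morula and the blastula in any type. Of all genes limma called 0.0116% and 0.801% in vivo, 0% and 7.16% in NTC, and 0% and 4.22% in NTM. By unadjusted p under 0.05 and a difference of at least 1 there were 1 and 3 of the 10 in vivo, 1 and 2 in NTC, and 1 and 1 in NTM.

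NTC and NTM embryos were each compared with in vivo embryos of the same stage. Both comparisons use the same in vivo embryos and so are not independent. At the 1-cell stage NTC embryos had more Npm2, at 952, 785 and 867 RPKM against 263, 367 and 408 RPKM in vivo, without overlap (1.34 ± 0.24, adjusted p = 0.0495, where 1.16% of genes were called). That call was lost without any of the 3 NTC embryos or without in vivo replicate 2 or 3 (1.28 to 1.48), and with median-ratio scaling. Oosp1 (-1.28 ± 0.24, adjusted p = 0.0570), Dppa3 (-1.65 ± 0.39, adjusted p = 0.0764) and Zar1 (-2.04 ± 0.56, adjusted p = 0.101) missed the threshold, with all 3 NTC embryos below all in vivo ones for each. Without in vivo 1-cell replicate 1, the library that stands apart, 8 of the 10 genes were called in NTC: Npm2 higher, and Zar1 (-2.72), Gdf9 (-1.95), Mos (-1.59), Oosp1 (-1.42), Zp3 (-1.40), Zp1 (-1.29) and Dppa3 (-1.28) lower. NTM 1-cell embryos had no call among the 10 (1.28% of genes were called and 3 of the 10 had an unadjusted p under 0.05 with a difference of at least 1). Without the same library there were 4, Zar1 (-3.29) and Mos (-2.57) lower and Bmp15 (1.11) and Zp2 (1.02) higher. At the 2-cell stage limma called none of the 10 in either comparison (0.152% and 0.141% of genes), and by unadjusted p there were 0 in NTC and 1 in NTM, Zp3 (-2.57 ± 0.87, adjusted p = 0.342).

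At the 4-cell stage, where 27.8% of genes were called in NTC and 21.1% in NTM, Dppa3 was lower in both. The mean in vivo level was 317 times that of NTC and 262 times that of NTM (-8.35 ± 0.34, adjusted p = 3.79e-06, and -8.03 ± 0.31, adjusted p = 1.41e-05), and both calls were kept in every alternative computed. Zp3 was lower in NTC (-1.70 ± 0.38, adjusted p = 0.0108), a call lost without in vivo 4-cell replicate 3 (-1.43, adjusted p = 0.0583). In NTM its difference was -0.45 ± 0.94 (adjusted p = 0.756), and it was called lower without NTM 4-cell replicate 2 (-1.65, adjusted p = 0.0371). Zp2 was higher in NTM (3.32 ± 0.64, adjusted p = 0.0101), a call lost without in vivo 4-cell replicate 2 or 3 (3.09 and 3.19). Its difference in NTC was 2.27 ± 0.89 (adjusted p = 0.0920), and it was called without NTC 4-cell replicate 2 (3.33, adjusted p = 0.00563). Bmp15 was called higher without NTC 4-cell replicate 1 (1.97) and without NTM 4-cell replicate 3 (2.56), and in NTC Npm2 was called lower without NTC 4-cell replicate 3 (-1.62) and Mos without in vivo 4-cell replicate 1 (-1.75). From the 8-cell stage to the blastula none of the 10 was called in either comparison, although only 8 of them passed the filter at the 8-cell and morula stages and 3 (NTC) or 2 (NTM) in the blastula. Without NTC blastula replicate 1, Oosp1 was called higher in NTC than in vivo blastulas (2.27, adjusted p = 0.0465). The genes called there were 1.46% and 2.02% of all at the 8-cell stage, 0.0321% and 0.168% in the morula, and 9.46% and 0.746% in the blastula. By unadjusted p under 0.05 and a difference of at least 1, limma gave 2, 1 and 0 of the 10 in NTC and 1, 0 and 0 in NTM.

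**Figure D4:**
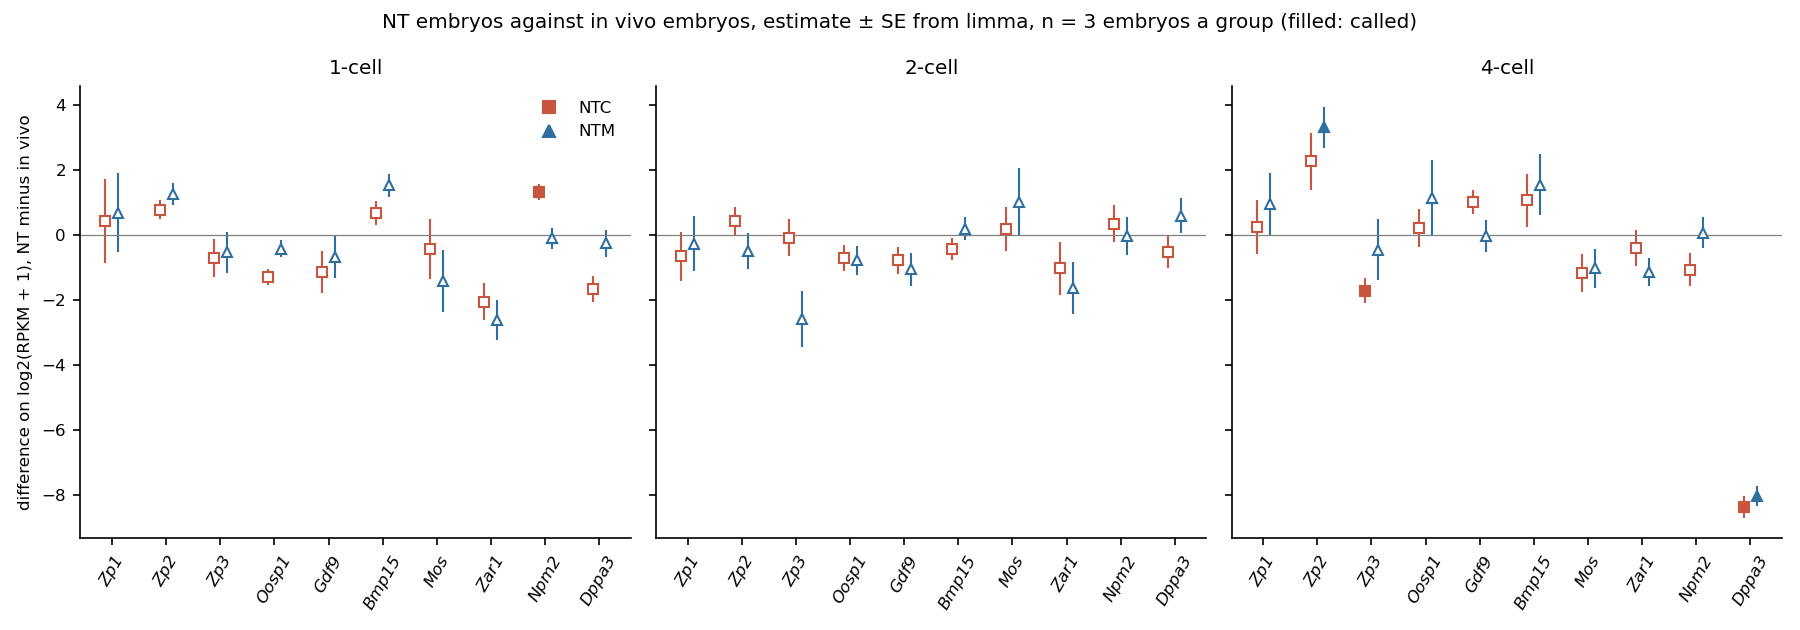
Difference of NTC and of NTM embryos from in vivo embryos of the same stage on the log2(RPKM + 1) scale, as the limma estimate ± SE (3 embryos a group) for each gene at the 1-cell, 2-cell and 4-cell stages. Filled symbols passed the test. At the 4-cell stage Dppa3 lies at -8.35 (NTC) and -8.03 (NTM), and the other 9 genes lie between -1.70 and 3.32 there. Over all 3 stages the lowest estimate of those 9 is -2.61, for Zar1 in NTM 1-cell embryos.

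The change from stage to stage was also compared between types by an interaction term. From 2-cell to 4-cell, Gdf9 fell less in NTC than in vivo (difference of the differences 1.80 ± 0.53, adjusted p = 0.0399, where 14.3% of genes were called) and Zp2 fell less in NTM (3.81 ± 0.87, adjusted p = 0.0160, where 9.91% were called). Dppa3 differed in both (-7.83 ± 0.61 and -8.63 ± 0.60, adjusted p = 1.32e-05 and 2.64e-05). At the next step Zp2 (-4.46 ± 1.04, adjusted p = 0.0105) and Npm2 (-2.64 ± 0.81, adjusted p = 0.0379) had lower differences in NTM than in vivo, where 18.7% of genes were called, and Dppa3 differed in both types (6.87 ± 0.52 in NTC, adjusted p = 1.06e-05, where 19.5% of genes were called, and 7.69 ± 0.46 in NTM, adjusted p = 2.98e-06). The terms of Gdf9 and Npm2 were lost when single libraries were left out (1.61 to 1.92 without any of 9 libraries, and -2.12 to -2.73 without any of 7), and those of Zp2 and Dppa3 were not. Zp2 was also called in NTC without NTC 4-cell replicate 2 (2.87, adjusted p = 0.0298, and -2.80, adjusted p = 0.0396, at the next step), as was Bmp15 from 2 to 4 cells without NTC 4-cell replicate 1 (2.40, adjusted p = 0.0452). None of the 10 was called at the other 3 steps, where 0.0256%, 0% and 0.236% of genes were called for NTC and 0.204%, 0.0335% and 0.647% for NTM, and where 1, 1 and 1 of the 10 and 2, 0 and 1 of the 10 had an unadjusted p under 0.05 with a difference of at least 1 in limma.

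The 2 kinds of NT embryo differed directly at the 1-cell stage, where 19.8% of genes were called. Npm2 was lower in NTM, at 285, 457 and 251 RPKM (-1.43 ± 0.22, adjusted p = 0.00298), and Dppa3 was higher, at 70.6, 56.6 and 103 RPKM against 27.5, 25.8 and 29.2 RPKM in NTC (1.41 ± 0.24, adjusted p = 0.00475). Neither gene overlapped between the types. Bmp15 was also higher in every NTM embryo (0.86 ± 0.12, adjusted p = 0.00231), as was Oosp1 (0.86 ± 0.21, adjusted p = 0.0196), both below the size that a call needs. None of the 10 was called from the 2-cell stage on. By unadjusted p under 0.05 and a difference of at least 1 there were 2 at the 2-cell stage, Zp3 (-2.49 ± 0.85) and Dppa3 (1.12 ± 0.43), 1 at the 8-cell stage, Dppa3 (1.14 ± 0.41), and 0 at the 4-cell stage, in the morula and in the blastula. Over all genes limma called 0% of them at the 2-cell, 4-cell, morula and blastula stages and 0.0507% at the 8-cell stage.

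The donor cells held these mRNAs at or near 0. All 10 genes were higher in NTC 1-cell embryos than in CC (29.3% of all genes were higher), by 2.01 ± 0.26 for Mos to 9.56 ± 0.20 for Bmp15, and 9 were higher in NTM 1-cell embryos than in MEF (25.2%), all but Mos. The donor libraries were not empty, however. Gdf9 was at 2.24, 1.76 and 1.83 RPKM in CC and at 1.69, 1.62 and 0 RPKM in MEF, and Oosp1 at 1.93, 1.56 and 1.70 RPKM in CC and 1.64, 1.78 and 0 RPKM in MEF. Bmp15 was at 0.770, 0.548 and 0.570 RPKM in CC and 0.481, 0.582 and 0 RPKM in MEF. These were 48 to 170 reads a library for the 3 genes in the 5 libraries, and MEF replicate 3 was at 0 for all 10 genes. CC and the other MEF libraries were at like levels for these 3 genes. The highest donor level was 1.62% of the NTC 1-cell mean for Gdf9, 0.256% for Oosp1 and 0.0624% for Bmp15. Dppa3 had at most 2 reads in any of the 6 libraries.

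**Figure D5:**
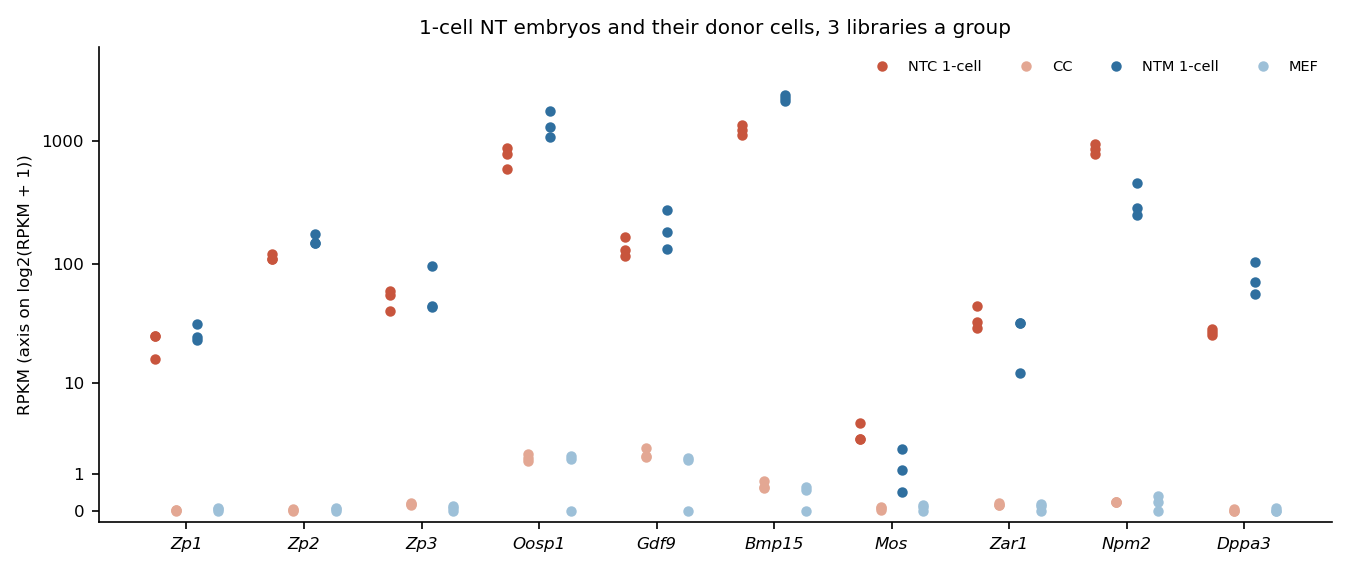
RPKM of the 10 genes in NTC 1-cell embryos, CC, NTM 1-cell embryos and MEF (vertical axis on the log2(RPKM + 1) scale), 3 libraries a group. Donor cells lie at or below 2.24 RPKM for every gene, with MEF replicate 3 at 0, and every NT 1-cell embryo lies above its donor cells.

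Other genes of the oocyte took the same step. Of 17 further oocyte genes, all 17 passed the filter at the 2-cell to 4-cell step, and those that fell numbered 14 in vivo, 17 for NTC and 16 for NTM, with median differences of -5.09, -4.01 and -4.96 beside 0.36, -0.20 and -0.20 over all genes. The most abundant, Bcl2l10, went from 6806 to 6.50 RPKM on average in vivo, Rfpl4 from 1566 to 2.47 (-8.74 ± 0.40, adjusted p = 1.94e-05), Oas1d from 853 to 3.73 and Oog1 from 445 to 3.36. Against in vivo embryos of the 4-cell stage, 15 of the 17 were tested, and 3 were higher and 4 lower in NTC (7.40% and 20.4% of all genes) and 1 higher and 3 lower in NTM (3.33% and 17.8%). Oog1 was among the higher ones in NTC, at 62.5 RPKM on average (3.81 ± 0.41, adjusted p = 0.000244), and its difference in NTM was 0.66 ± 0.84 (adjusted p = 0.596). Of the oocyte transcription factors, those that fell were 3 of 4 tested in vivo, 2 of 3 tested for NTC and 1 of 3 for NTM. Nobox went from 36.6 to 0.266 RPKM in vivo (-4.49 ± 0.73, adjusted p = 0.00173) and fell in all 3 types.

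The egg surface genes divided. Izumo1r, which encodes the egg receptor for the sperm protein Izumo1, fell in all 3 types (-4.83 ± 0.61 in vivo, adjusted p = 0.000542). Astl fell in vivo (-2.68 ± 0.54, adjusted p = 0.00481) and in NTC (-2.13 ± 0.66, adjusted p = 0.0341), and its difference in NTM was 1.00 ± 1.20 (adjusted p = 0.528). Cd9, a tetraspanin needed for the fusion of egg and sperm and made by many cells, rose from 18.8 to 325 RPKM on average in vivo (4.07 ± 0.36, adjusted p = 0.000130) and in both kinds of NT embryo, and stayed lower at the 4-cell stage in NTC (37.2 RPKM on average, -3.20 ± 0.38, adjusted p = 0.000449) and NTM (150 RPKM, -1.10 ± 0.27, adjusted p = 0.0253) than in vivo.

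Among the 8 receptors and Smad proteins that carry the Gdf9 and Bmp15 signals, 4 fell in vivo, 3 in NTC and 4 in NTM at the same step, and none rose. Of all genes tested, 20.8%, 20.1% and 14.3% fell there in the same order, and 31.4%, 16.4% and 12.1% rose. Smad3 fell in all 3 types (-4.62 ± 0.51 in vivo, adjusted p = 0.000292), as did the receptor gene Bmpr1b (-3.09 ± 0.53, adjusted p = 0.00225). Of 5 genes that cumulus cells switch on in response to the oocyte, none passed the filter in embryos at this step in vivo or in NTM and 1 did in NTC. In CC, Tnfaip6 was at 139 RPKM, Grem1 at 99.9 RPKM (0.0762 to 168) and Ptgs2 at 36.4 RPKM on average, but MEF held 109, 14.6 and 29.8 RPKM. Ptx3 was at 6.70 RPKM in CC and 625 RPKM in MEF, and Has2 was at 0 in CC. These genes thus did not set the cumulus cells apart. The 3 partners of Dppa3 in DNA methylation all fell in vivo: Uhrf1, which recruits the maintenance methyltransferase and which the Dppa3 protein binds (-4.04 ± 0.40, adjusted p = 0.000192), Tet3, the maternal dioxygenase (-3.39 ± 0.47, adjusted p = 0.000840), and Dnmt1 (-1.55 ± 0.40, adjusted p = 0.0145). Uhrf1 and Tet3 fell in NTC and NTM too, and none of the 3 was called between NT and in vivo embryos at the 4-cell stage. All NTM 4-cell embryos were nevertheless above all in vivo ones for Uhrf1 (4.57 to 6.75 against 2.21 to 3.37 RPKM, difference 0.74 ± 0.49, adjusted p = 0.315) and for Dnmt1 (7.01 to 9.95 against 3.25 to 5.30 RPKM, difference 0.79 ± 0.48, adjusted p = 0.272).

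The likeness of the courses was measured as Pearson's r of group means of log2(RPKM + 1) over the 18 embryo groups, which share libraries and depth and are given as a description. The genes compared numbered 10931, the 10 included, and the nearest genes outside the 10 are given. Those nearest to Bmp15 were Pla2g4c (r = 0.991), Plxnc1 (0.990) and Accsl (0.990), and those nearest to Oosp1 were Gm13023, Fbxw28 and Obox5 (0.987 each). Nearest to Gdf9 were Fbxw18 (0.989), Fbxw28 (0.987) and Gm13023 (0.984). Npm2 was nearest to Nlrp14 (0.974), Kbtbd8 (0.972) and Lmo1 (0.969), and Zar1 to Gm28989 (0.990), Cldn8 (0.987) and Obox2 (0.984). Zp1 was nearest to Creb3l4 (0.975), Phospho2 (0.970) and Mbd3l2 (0.969) and Zp2 to Cpa1 (0.974), Abl2 (0.969) and Spats2 (0.965). Zp3 had less close neighbours, Lrrc42 (0.926), Tsc22d2 (0.911) and Usp54 (0.90), and Mos was nearest to Gm43574 (0.965). Dppa3 was nearest to Rnaseh2a (0.960), Cebpzos (0.959) and Uqcrh (0.958). These 3 ranged from 0 to 2.84 RPKM in 1-cell embryos and reached 13.4 to 27.3, 5.58 to 13.0 and 98.9 to 177 RPKM in the in vivo 4-cell embryos. Within the 10, Oosp1 and Bmp15 had r = 0.987, Gdf9 and Oosp1 0.981, Zp1 and Zp2 0.938, and Zp3 only 0.695 with Zp1 and 0.760 with Zp2. Dppa3 lay between -0.227 and 0.202 with the other 9.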

How the data were processed

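RNA-seq libraries of single mouse embryos and of donor cells were analysed from the RPKM values that the authors deposited, 1 value per gene and library. The methods of the study name TopHat, Bowtie2 and HTSeq with the UCSC mouse reference, while the submitters' processing notes name Bowtie 0.12.2 and mm8, so the mapping behind the deposited RPKM is uncertain. Reads per library were recovered from the steps of low RPKM values and GENCODE M21 gene lengths. In each library at least 75.1% of low values came out as whole reads. For Zp2 and Npm2 the GENCODE length gave too few whole reads, and lengths fitted to the steps (2199 and 997 bases) were used. Intervals or floors set from these reads cover counting error only, since reads are not unique molecules.

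Values were taken as log2(RPKM + 1), and genes with a mean of at least 0.5 RPKM over the groups compared were tested with limma 3.58.1 in R 4.3.3 (lmFit, then eBayes with a trend), 1 fit for each of 38 comparisons of 2 groups and 10 interaction terms. Calls required an adjusted p under 0.05 (Benjamini-Hochberg over all genes tested) and a log2 difference of at least 1. The code was tested on simulated data. Groups came from the sample labels. Replicate numbers did not pair the samples (0 of 38 comparisons), so no block was used. Nothing in the labels ties embryos to separate mothers or days, so p-values measure the spread between these embryos, which may be technical in part. The 10 genes were all named, and other genes were named from fixed lists or as the 3 highest correlations with each of the 10. These genes and lists were chosen with earlier results of these data known. RefSeq promoters matched 4 of the 10 (Zp3, Oosp1, Bmp15 and Zar1). Alternatives were a pseudocount of 0.1, no filter, median-ratio scaling, nuclear genes only, no fold threshold, a single fit of the 20 groups, blocking on replicate number, and each library left out.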

Additional observations from a re-analysis of the deposited data

Results flagged for a closer look

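For 8 changes between consecutive stages the difference between NT and in vivo embryos passed the test of the difference itself, limma's interaction term on the log2(RPKM + 1) scale. Dppa3 gave 4 of them: -7.83 (NTC) and -8.63 (NTM) from the 2-cell to the 4-cell stage, and 6.87 (NTC) and 7.69 (NTM) from the 4-cell to the 8-cell stage, around the level of 8284 to 12402 RPKM in the in vivo 4-cell embryos. Both steps share those 3 embryos, so the values are not independent. From the 2-cell to the 4-cell stage Gdf9 differed in NTC by 1.80 and Zp2 in NTM by 3.81. From the 4-cell to the 8-cell stage Zp2 differed in NTM by -4.46 and Npm2 by -2.64. In vivo 4-cell libraries had 5.68 to 8.87% of reads from mitochondrial genes and NT 4-cell libraries 29.6 to 40.4%. The terms were recomputed with nuclear genes only as an alternative, and beyond that scaling the part of this in these values was not tested.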

How the results depend on the processing

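No called value of the 10 genes changed sign. The 84 called values, each recomputed under every fixed alternative, gave 588 values, of which 555 stayed called. Of 551 values with a library left out 492 did. The alternative with no fold threshold used the main fit and could not end a call, so all its values are among the 555 by design. Over the 5 steps NTM had 8 calls, which became 4 with no filter on low values, 5 with median-ratio scaling, 15 with 1 fit over all groups and 5 to 8 with a library left out. NTC against in vivo had 3 calls over the 6 stages, against 5 with nuclear genes only, 5 with 1 fit and 2 to 10 with a library left out, the 10 being without in vivo 1-cell replicate 1. NTM against in vivo had 2 calls, against 4 with median-ratio scaling, 7 with 1 fit and 1 to 6 with a library left out, the 6 again without that library. NTM against NTC had 2 calls, against 4 with median-ratio scaling, 1 with 1 fit, 4 with no fold threshold and 2 to 3 with a library left out. Median-ratio scaling moved the median log2 difference over all genes, for example from -0.69 to -0.20 for NTM against in vivo at the 4-cell stage. The cause of these changes was not tested. With the replicate number as a block, NTM had 9 calls over the 5 steps, NTC against in vivo 3 and NTM against in vivo 3. The numbers pair nothing known, so the block is given only here. With 3 embryos a group and values of a few reads at late stages, small differences of Mos and of the blastula were not detectable.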
